A study of Mus musculus with 12 samples.

Results

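Messenger RNA of 10 genes known from dendritic cells was measured by bulk RNA sequencing of mouse bone marrow. The genes are *Siglech*, *Cd209a*, *Cd209d*, *Klk1*, *Ccr9*, *Tcf4*, *Irf8*, *Cox6a2*, *Runx2* and *Itgax*. They were chosen by symbol, and all 10 were found among the 24444 gene symbols of both deposited tables. The marrow came from C57BL/6 mice in 4 groups of 3 libraries. MN1_KO was Hopx-knockout marrow with MN1 overexpression at a labelled age of 16 weeks (replicates 5, 7 and 8). MN1_WT was Hopx-wildtype marrow with MN1 overexpression at the same labelled age (replicates 2, 3 and 4). The group called aged_KO was Hopx-knockout marrow without MN1, labelled aged and given as 18 weeks (replicates 3, 9 and 10), and aged_WT was its Hopx-wildtype counterpart (replicates 1, 6 and 7). All 4 groups share the strain and the tissue. How MN1 was delivered, and which cells carry the Hopx deletion, is not given in the sources used here. The labels do not say whether the libraries of a group came from separate animals, so p-values measure the spread between these libraries. Values for single libraries are given in the order of the replicate numbers above, in CPM, the count of a gene divided by the total count of its library and put on a scale shared by all libraries.

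Dendritic cells take up antigen and present it to T cells. Plasmacytoid dendritic cells, which develop in the marrow and carry Siglec-H in the mouse, are known for making type I interferon when they sense viral nucleic acid. Conventional dendritic cells specialise in presenting antigen. The E protein encoded by *Tcf4* sets and keeps the plasmacytoid fate, *Irf8* is needed for dendritic cells and monocytes, and *Runx2* acts in plasmacytoid cells in leaving the marrow. Both kinds of dendritic cell arise from progenitors that carry the cytokine receptor Flt3. Hopx is a small homeodomain protein of stem cells in several tissues, and MN1 is a transcriptional coregulator that causes myeloid leukaemia when overexpressed in mouse marrow.

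Libraries held between 16544407 and 28409046 counts, so that 1 count was worth 0.0352 to 0.0604 CPM. *Hopx* itself was at 0, 0 and 0.121 CPM in aged_KO, against 14.2, 33.6 and 15.3 CPM in aged_WT. In the MN1 experiment *Hopx* was at 3.50, 3.51 and 2.92 CPM in MN1_KO, against 27.9, 14.1 and 25.6 CPM in MN1_WT. *Mn1* was at 47.3, 46.3 and 22.1 CPM in MN1_KO and at 0.395, 36.4 and 0.160 CPM in MN1_WT, so MN1_WT replicates 2 and 4 went against their label: the aged libraries ran between 0.0704 and 1.18 CPM. The summed level of 4 Y-linked genes was 14.1, 21.6 and 8.05 CPM in MN1_KO and 241, 81.8 and 229 CPM in MN1_WT, and at most 0.152 CPM in the aged libraries. *Xist*, the RNA made from the inactive X chromosome, was at 4937, 3919 and 585 CPM in MN1_KO and at 18.1, 4001 and 2.40 CPM in MN1_WT, next to 435 to 823 CPM in the aged libraries. Genotype and Y-linked level therefore cannot be told apart in the MN1 experiment. Between the experiments, MN1 status, labelled age, deposited table and Y-linked level cannot be told apart.

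In bulk marrow, fewer cells of a type and less RNA per cell cannot be told apart, which touches every value given for these genes.

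*Siglech*, *Klk1* and *Cd209a* moved together across the 12 libraries, while *Ccr9* parted from them where *Mn1* was high, so the sequence upstream of these 4 genes is shown as context. *Siglech* lies on chromosome 7 (55768154 to 55779448, plus strand), *Klk1* on the same chromosome (44225360 to 44229622, plus strand), *Cd209a* on chromosome 8 (3743395 to 3748984, minus strand) and *Ccr9* on chromosome 9 (123767211 to 123783457, plus strand; all RefSeq, build GRCm38, which is mm10). Each sequence is the 220 bases that end 30 bases before the transcript start in the promoter table, which for *Siglech* is not the outermost start of the gene, 5′ to 3′ on the strand of the gene, from RefSeq on GRCm38.p6. The windows are chr7:55767934-55768153 (plus) for *Siglech*, chr7:44225110-44225329 (plus) for *Klk1*, chr8:3749015-3749234 (minus) for *Cd209a* and chr9:123766961-123767180 (plus) for *Ccr9*. Capitals mark matches to the E-box CANNTG, the letters that E proteins such as Tcf4 bind, which read the same on both strands.
Siglech: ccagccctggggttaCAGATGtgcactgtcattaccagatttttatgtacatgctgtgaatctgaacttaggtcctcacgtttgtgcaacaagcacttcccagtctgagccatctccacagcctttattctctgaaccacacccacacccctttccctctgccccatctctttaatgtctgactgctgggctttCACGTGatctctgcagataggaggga
Klk1: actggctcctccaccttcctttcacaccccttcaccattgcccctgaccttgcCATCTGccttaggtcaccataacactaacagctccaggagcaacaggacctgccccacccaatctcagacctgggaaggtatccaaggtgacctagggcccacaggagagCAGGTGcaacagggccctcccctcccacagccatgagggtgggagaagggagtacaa
Cd209a: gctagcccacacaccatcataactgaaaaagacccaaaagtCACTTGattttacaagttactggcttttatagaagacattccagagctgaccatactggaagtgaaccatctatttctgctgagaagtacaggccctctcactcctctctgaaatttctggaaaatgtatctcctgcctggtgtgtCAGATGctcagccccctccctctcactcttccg
Ccr9: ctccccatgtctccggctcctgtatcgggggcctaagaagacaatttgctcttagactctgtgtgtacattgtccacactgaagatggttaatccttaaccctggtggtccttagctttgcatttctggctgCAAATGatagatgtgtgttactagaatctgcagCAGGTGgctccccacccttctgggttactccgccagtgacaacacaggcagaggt
Each of the 4 windows held 2 matches. Of the other dendritic cell genes with a promoter entry, *Itgax* held 0, *Cd209d* and *Runx2* 1 each, and *Irf8* 0 or 2 depending on the start. Of 32851 promoter windows of the same length, 62.1% held at least 1, with a mean of 1.03 matches, so a match was common everywhere. The E-box form CAGCTG was in 11.4% of all windows and in none of the 4. CACCTG, read on both strands and itself a CANNTG, was in 15.5% of all windows and once each in those of *Klk1* and *Ccr9*. GAAA followed by any 2 bases and GAAA again, letters bound by interferon regulatory factors such as Irf8 and read on both strands, were in 2.63% of all windows and in none of the 4. These letters describe the windows, and binding was not measured.

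Knockout against wild type in aged marrow addresses what Hopx loss does to marrow without MN1. Of the 10 dendritic cell genes, 8 fell in aged_KO, 0 rose and 2 did not pass. The genes that fell were *Siglech*, *Klk1*, *Cd209a*, *Cd209d*, *Cox6a2*, *Ccr9*, *Irf8* and *Tcf4*, with folds between 2.15 for *Tcf4* and 9.75 for *Cd209d*. The level of each of the 8 was lower in every aged_KO library than in any aged_WT library. *Runx2* and *Itgax* were the exceptions. Over all 12771 genes tested, 15.8% fell and 15.6% rose, and 38.4% had knockout libraries all below the wild-type libraries. The median log2 fold change was -2.18 over the 10 genes and -0.02 over all genes. As these genes were picked with earlier results in view, the count describes them and is no independent evidence. Tests are edgeR's quasi-likelihood test with Benjamini-Hochberg adjustment over all genes, at a threshold of 0.05, and errors of log2 fold changes are standard errors (SE) with 3 libraries a group. With the spread set by all 12 libraries instead of these 6, *Siglech*, *Ccr9*, *Tcf4* and *Irf8* did not pass (edgeR adjusted p = 0.0580, 0.359, 0.186 and 0.219) and 4 of the 10 genes fell. *Cd209d* passed the filter on low counts only through aged_WT, with 4, 11 and 2 counts in aged_KO.

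**Figure D1:**
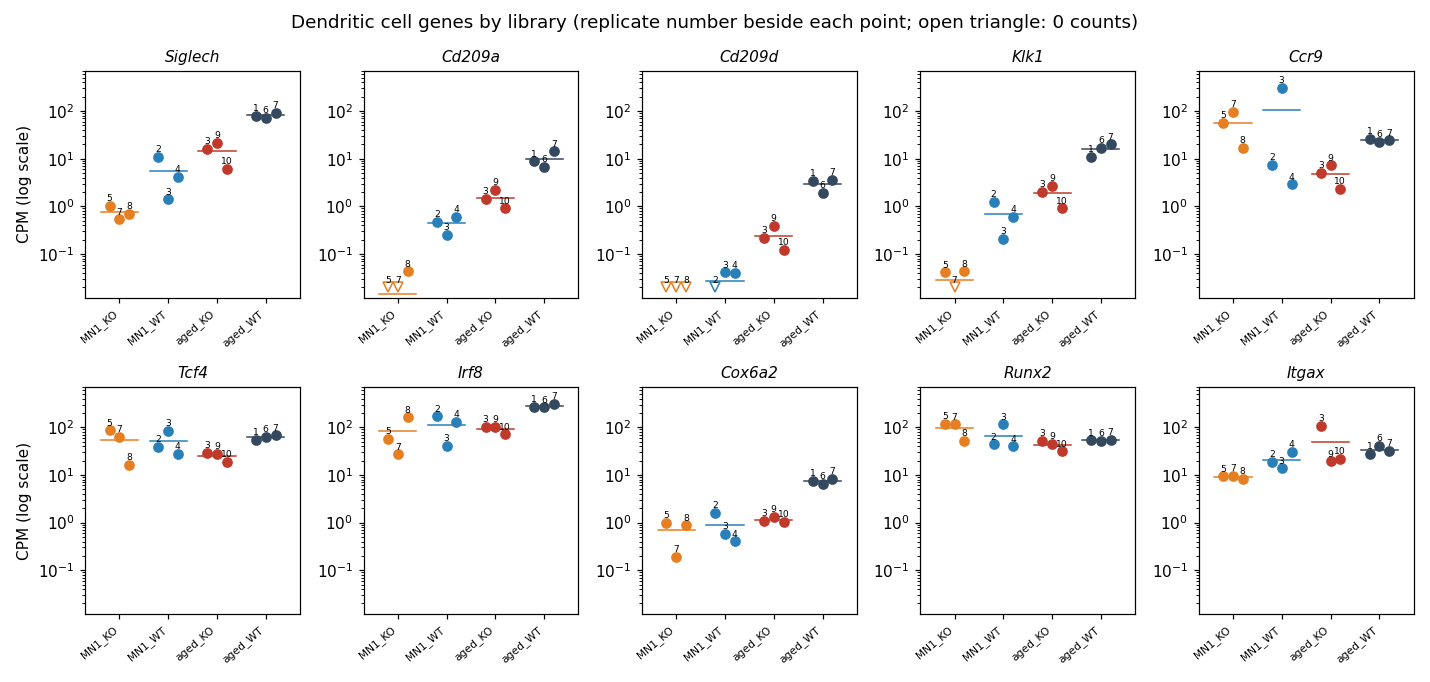
CPM of each of the 10 genes (log axis) in the 12 libraries, by group, with the replicate number beside each point, a line at the group mean and an open triangle for a library with 0 counts. In 8 of the panels the 3 aged_KO points lie below the 3 aged_WT points, while in the *Ccr9* panel MN1_WT runs between 2.88 and 304 CPM.

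*Siglech* encodes a sialic acid-binding lectin on the surface of mouse plasmacytoid dendritic cells. It was at 16.1, 21.4 and 6.10 CPM in aged_KO, against 78.7, 71.8 and 92.9 CPM in aged_WT. The groups did not overlap, and the highest knockout library reached 21.4 CPM where the lowest wild-type library had 71.8 CPM. The mean was 14.5 ± 7.78 CPM in aged_KO and 81.1 ± 10.8 CPM in aged_WT (SD, n = 3 each), with a log2 fold change of -2.26 ± 0.44 (edgeR adjusted p = 0.0133). *Klk1*, which encodes tissue kallikrein, a serine protease whose transcript is also found in mouse plasmacytoid cells, was at 2.03, 2.68 and 0.907 CPM in aged_KO, against 10.9, 16.8 and 20.0 CPM in aged_WT. Its log2 fold change was -2.84 ± 0.37 (edgeR adjusted p = 0.00159). Replicate 10 was the lowest of the aged_KO libraries for both genes. Of the 50-base stretches of *Klk1* transcripts, 27.2% also occur in transcripts of other genes, most often *Klk1b5* (18%), so some of its reads may be shared. The expected count of *Klk1* was not whole in 1 of 12 libraries at a tolerance of 0.005. *Klk1b5* was at 0 in all 12 libraries.

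*Cox6a2* encodes the subunit of cytochrome c oxidase that is otherwise typical of heart and skeletal muscle. Its level was 1.10, 1.34 and 1.03 CPM in aged_KO, against 7.59, 6.46 and 8.26 CPM in aged_WT. Replicates lay close together within both groups, and its log2 fold change of -2.47 ± 0.23 had the smallest adjusted p of the 10 genes (edgeR adjusted p = 0.000356). *Cox6a1*, the isoform of most tissues, was at 111, 99.8 and 130 CPM in aged_KO against 134, 145 and 159 CPM in aged_WT, short of the threshold (edgeR adjusted p = 0.238). *Cox6a2* lies on chromosome 7 (128205435 to 128206366, minus strand), 54778 bases from *Itgax*, and is overlapped by *Itgad* on the opposite strand. Whether counting used the strand of the reads is not given in the sources used here.

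*Ccr9* encodes a chemokine receptor that guides cells to the gut and thymus. Aged_KO held 5.11, 7.22 and 2.297 CPM, against 25.9, 22.7 and 24.3 CPM in aged_WT. The mean was 4.87 ± 2.47 CPM in aged_KO and 24.3 ± 1.60 CPM in aged_WT (SD, n = 3 each), without overlap, and the log2 fold change was -2.09 ± 0.35 (edgeR adjusted p = 0.00474). *Ccl25*, the gene of its ligand, was at 1.54, 0.528 and 1.33 CPM in aged_KO against 1.45, 0.837 and 1.32 CPM in aged_WT, short of the threshold (edgeR adjusted p = 0.952).

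*Cd209a* and *Cd209d* belong to the mouse family of DC-SIGN lectins, and *Cd209a* is known from conventional and monocyte-derived dendritic cells as well as plasmacytoid cells. *Cd209a* was at 1.43, 2.25 and 0.907 CPM in aged_KO, against 8.88, 6.74 and 14.1 CPM in aged_WT. *Cd209d*, 122840 bases away on chromosome 8 (3871824 to 3878548, minus strand), was at 0.220, 0.387 and 0.121 CPM in aged_KO, against 3.44, 1.91 and 3.60 CPM in aged_WT. Neither gene's groups overlapped, although *Cd209d* rested on 17 counts in aged_KO and 176 in aged_WT. The log2 fold changes were -2.44 ± 0.38 for *Cd209a* (edgeR adjusted p = 0.00281) and -3.29 ± 0.45 for *Cd209d* (edgeR adjusted p = 0.00137). Of the 7 *Cd209* genes of the family looked up, 3 were tested. The third, *Cd209c*, was at 3.68, 2.89 and 2.60 CPM in aged_KO against 3.01, 2.46 and 3.09 CPM in aged_WT, short of the threshold (edgeR adjusted p = 0.383).

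*Irf8* was the most abundant of the 10 genes per transcript length. It encodes an interferon regulatory factor of the monocyte, dendritic and B cell lineages and lies on chromosome 8 (120736358 to 120756694, plus strand). Aged_KO held 103, 101 and 70.6 CPM, against 265, 261 and 313 CPM in aged_WT, with means of 91.5 ± 18.2 and 280 ± 28.8 CPM (SD, n = 3 each). No aged_KO library came near the lowest aged_WT library, and the log2 fold change was -1.43 ± 0.16 (edgeR adjusted p = 0.000679). *Tcf4*, the E protein gene, lies on chromosome 18 (69343429 to 69687967, plus strand) and was at 29.3, 27.9 and 18.6 CPM in aged_KO, against 54.4, 63.0 and 68.3 CPM in aged_WT. Its log2 fold change was -1.10 ± 0.17 (edgeR adjusted p = 0.00230), the smallest change among the genes that fell.

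*Runx2*, best known as the master regulator of bone-forming cells, lies on chromosome 17 (44495987 to 44814797, minus strand), where *Supt3* overlaps it on the opposite strand. It was at 52.4, 44.8 and 31.1 CPM in aged_KO, against 53.1, 51.8 and 54.4 CPM in aged_WT. Aged_KO replicate 3 lay among the wild-type libraries, and the log2 fold change of -0.13 ± 0.16 did not pass (edgeR adjusted p = 0.565). *Itgax* encodes CD11c, an integrin subunit of conventional dendritic cells that is also made by macrophages, and lies on chromosome 7 (128129526 to 128150657, plus strand). It was at 107, 19.5 and 21.5 CPM in aged_KO, against 27.7, 40.2 and 31.8 CPM in aged_WT. Replicate 3 was the highest of all libraries and replicates 9 and 10 were below every wild-type one, so the log2 fold change was 0.70 ± 0.71 with all libraries (edgeR adjusted p = 0.497) and -0.48 ± 0.17 without that replicate (edgeR adjusted p = 0.0800).

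Other genes stood high in aged_KO replicate 3 along with *Itgax*; these were chosen after their values were seen. The complement genes *C1qa* and *C1qb*, made by macrophages, were at 73.5 and 125 CPM in that library, against 20.2 and 28.2 CPM in aged_KO replicate 9 and 23.1 and 36.0 CPM in replicate 10. *Itgad*, of another CD11 integrin subunit, was at 31.4, 6.13 and 6.63 CPM in aged_KO and 16.9, 18.6 and 12.3 CPM in aged_WT. *Cadm1*, an adhesion gene of conventional dendritic cells, was at 23.3, 7.15 and 4.53 CPM in aged_KO and 7.43, 10.8 and 6.18 CPM in aged_WT. The other macrophage markers of the list did not stand out alike in aged_KO. *Vcam1* was at 64.0, 65.8 and 77.9 CPM and *Adgre1* at 68.5, 70.3 and 40.3 CPM. *Mrc1* was at 8.29, 7.88 and 5.08 CPM and *Cd5l* at 7.58, 4.40 and 3.08 CPM. The summed CPM of 6 macrophage markers, *C1qa* and *C1qb* included, ran between 185 and 347 in aged_KO and between 345 and 439 in aged_WT, and none of them was at 0 in every library of a group. Their part in the *Itgax* value was not tested. In addition, 8.88% of the 50-base stretches of *Itgax* transcripts also occur in *Itgad*, and the expected count of *Itgax* was not whole in 11 of 12 libraries at a tolerance of 0.005, so reads may have been split between these genes.

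Levels can be set between genes only per length, for which the deposited TPM, a level corrected for transcript length, was used. In aged_KO the order by mean TPM was *Irf8* at 48.5, *Itgax* at 19.1, *Runx2* at 11.0, *Siglech* at 9.03, *Tcf4* at 5.16, *Klk1* at 3.46, *Cox6a2* at 2.91, *Ccr9* at 1.68, *Cd209a* at 1.59 and *Cd209d* at 0.453. In aged_WT it was *Irf8* at 140, *Siglech* at 47.1, *Klk1* at 27.6, *Cox6a2* at 17.7, *Runx2* at 12.8, *Tcf4* at 11.9, *Itgax* at 11.7, *Cd209a* at 9.80, *Ccr9* at 7.91 and *Cd209d* at 5.26. The first 4 places and the last one were the same in every aged_WT library, while *Runx2*, *Tcf4*, *Itgax*, *Cd209a* and *Ccr9* did not keep 1 place in every library. In aged_KO only *Irf8* and *Cd209d* kept their places in every library. In MN1_KO the order began with *Irf8* at 43.5, *Runx2* at 28.3, *Ccr9* at 21.9 and *Tcf4* at 13.1, and in MN1_WT with *Irf8* at 66.8, *Ccr9* at 44.8, *Runx2* at 20.3 and *Tcf4* at 12.1. *Ccr9* held places between 1 and 8 in MN1_WT, the widest span of any gene, and *Siglech* was at 0.523 TPM in MN1_KO and 3.74 TPM in MN1_WT. Between the aged groups *Klk1* and *Cox6a2* stood below *Runx2* and *Tcf4* in aged_KO and above them in aged_WT.

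Further genes of plasmacytoid cells moved the same way. Of 18 other plasmacytoid genes, all tested, 11 fell in aged_KO, 0 rose and 7 did not pass, with a median log2 fold change of -0.88. Over all genes tested, 15.8% fell and 15.6% rose. As the list was chosen with earlier results known, the count is a description. *Ly6d*, a surface antigen that marks the lymphoid route to these cells and is also high in B cell progenitors, was at 8.34, 13.1 and 9.55 CPM in aged_KO, against 129, 140 and 171 CPM in aged_WT (log2 fold change -3.62 ± 0.21, edgeR adjusted p = 0.000121). *Bst2*, the antigen of the PDCA-1 antibody and an antiviral tether, was at 25.9, 28.3 and 20.3 CPM in aged_KO, against 74.9, 87.4 and 79.1 CPM in aged_WT (-1.51 ± 0.15, edgeR adjusted p = 0.000399). *Upb1*, of pyrimidine breakdown, fell by 2.49 and *Havcr1*, also called TIM-1, by 2.89 on the log2 scale. None of the 3 libraries of aged_KO overlapped aged_WT in these 4 genes. *Havcr1* passed the filter on low counts only with the help of aged_WT, where it is higher. So did *Atp2a1*, another of the 11, named after its values were seen, with 34 counts in aged_KO and 80 in aged_WT. *Spib*, an Ets factor of plasmacytoid and B cells named after its values were seen, was at 7.96, 9.44 and 2.54 CPM in aged_KO, against 104, 107 and 197 CPM in aged_WT (-4.12 ± 0.53, edgeR adjusted p = 0.00428). The nucleic acid sensor genes *Tlr7* and *Tlr9*, named likewise, did not pass, with log2 fold changes of -0.02 ± 0.15 and -0.91 ± 0.45 (edgeR adjusted p = 0.939 and 0.178).

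Among conventional dendritic cell genes, 23 of 27 were tested, of which 11 fell, 2 rose and 10 did not pass, with a median log2 fold change of -0.71. This count too is a description, beside 15.8% of all genes tested that fell and 15.6% that rose. *Irf4*, a factor of the type 2 conventional cells and also of plasma cells, was at 6.37, 9.72 and 9.37 CPM in aged_KO, against 63.5, 67.5 and 68.9 CPM in aged_WT (-2.78 ± 0.18, edgeR adjusted p = 0.000121). The lectin genes *Clec10a* and *Clec9a* fell by 1.39 and 1.84 on the log2 scale, and *Dtx1*, a Notch target, fell by 3.04. *Dtx1* passed the filter on low counts only with the help of aged_WT, where it is higher. So did *Ccr7*, another of the 11, named after its values were seen, with 5, 19 and 11 counts in aged_KO. *Zbtb46*, the factor that sets conventional dendritic cells apart, was named after its values were seen and was at 1.81, 1.55 and 0.907 CPM in aged_KO, against 3.98, 4.46 and 6.18 CPM in aged_WT (-1.57 ± 0.29, edgeR adjusted p = 0.00477). The 2 genes that rose were *Sirpa*, an inhibitory receptor of many myeloid cells, at 0.60 ± 0.14, and *Mgl2*, a lectin gene, at 0.58 ± 0.20 (edgeR adjusted p = 0.0112 and 0.04996), and the CPM of *Mgl2* overlapped between the groups. *Xcr1* and *Batf3*, of the type 1 conventional cells, did not pass (log2 fold changes -0.87 ± 0.50 and 0.40 ± 0.43); these 4 genes too were named after their values were seen.

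**Figure D2:**
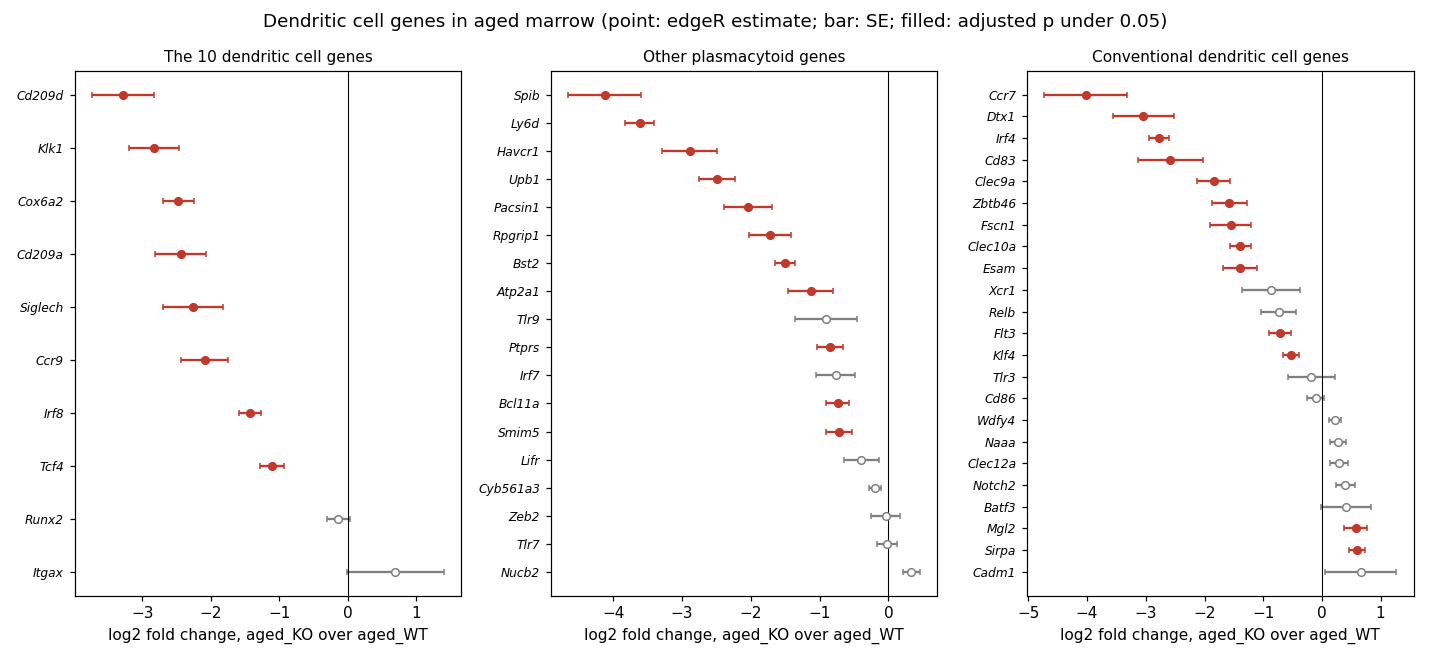
Log2 fold change of aged_KO over aged_WT with its standard error (edgeR, 3 libraries a group) for the 10 genes, the other plasmacytoid genes and the conventional dendritic cell genes, with filled points for an adjusted p under 0.05. Filled points lie to the left of 0 except those of *Sirpa* and *Mgl2* in the conventional panel.

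Regulators of dendritic cell development were divided. Of 19, all tested, 5 fell, 6 rose and 8 did not pass, with a median log2 fold change of -0.01. The genes that rose are ones that monocytes and neutrophils also use. *Csf2rb*, the shared receptor chain of GM-CSF, IL-3 and IL-5, was at 691, 631 and 620 CPM in aged_KO, against 336, 312 and 243 CPM in aged_WT (1.30 ± 0.15, edgeR adjusted p = 0.000772). *Nfil3* rose by 1.01, and *Spi1*, which encodes PU.1, by 0.69 on the log2 scale. *Stat3*, *Csf2ra* and *Gfi1* also rose, and were at 0.68, 0.75 and 0.78. The genes that fell were *Irf4*, *Spib*, *Bcl11a* at -0.74, *Flt3* at -0.71 and *Cbfa2t3* at -0.65. *Flt3*, the receptor that drives dendritic cell output, was at 16.1, 17.7 and 11.0 CPM in aged_KO, against 30.5, 25.0 and 28.3 CPM in aged_WT, without overlap. *Id2*, *Zeb2* and *Batf3* did not pass. Of this list, *Irf4*, *Csf2rb*, *Nfil3* and *Spi1* had the smallest adjusted p, and the others were named after their values were seen.

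Relatives of the 10 genes followed them in part. In the Siglec family, 4 of 7 tested genes fell and 2 rose: besides *Siglech*, *Cd22* (-3.87 ± 0.65) and *Siglecg* (-1.05 ± 0.18), both of B cells, and *Siglec1* (-1.54 ± 0.34), of macrophages, were lower, whereas *Siglece* (1.15 ± 0.15) and *Cd33* (0.96 ± 0.23), of neutrophils and other myeloid cells, were higher. *Siglecf*, of eosinophils, did not pass (-0.04 ± 0.23). Among E proteins and their Id inhibitors, 6 of 7 were tested, of which 4 fell and 1 rose. *Tcf3* (-0.91 ± 0.10) and *Tcf12* (-0.54 ± 0.11), the other E proteins, fell with *Tcf4*. *Id3* fell (-2.54 ± 0.36), *Id1* rose (0.41 ± 0.13, with overlapping CPM) and *Id2*, the inhibitor that opposes Tcf4 in dendritic cells, did not pass (0.13 ± 0.13).

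In the interferon regulatory factor family, *Irf5* (-0.63 ± 0.16) and *Irf3* (-0.34 ± 0.09) fell with *Irf8* and *Irf4*. *Irf7*, the factor that drives interferon production in plasmacytoid cells, was at 46.4, 43.2 and 23.0 CPM in aged_KO, against 83.4, 77.7 and 56.0 CPM in aged_WT, short of the threshold (-0.77 ± 0.28, edgeR adjusted p = 0.0800). *Irf1* (-0.41 ± 0.16), *Irf9* (-0.55 ± 0.19) and *Irf2* (-0.01 ± 0.15) did not pass either. None of the 4 genes of the Runx group passed, with log2 fold changes of 0.03 ± 0.09 for *Runx1*, -0.03 ± 0.13 for *Runx3* and 0.29 ± 0.10 for the partner gene *Cbfb*. Of the 5 beta2 integrin genes 2 rose, *Itgam* at 0.97 ± 0.18, which encodes CD11b of neutrophils and monocytes, and the shared beta chain *Itgb2* at 0.68 ± 0.15, while *Itgal* and *Itgad* did not pass. Of 7 *Klk1* relatives, *Klk1* included, 3 were tested and all 3 fell, with *Klk1b27* at -3.12 ± 0.48 and *Klk8* at -0.86 ± 0.25. *Klk1b27* passed the filter on low counts only through aged_WT, with 3, 12 and 3 counts in aged_KO, so that count is a description. Without scaling factors the median log2 fold change of all genes moved by -0.18 in the aged comparison, where the smallest change that passed among the listed genes was 0.34 in size.

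**Figure D3:**
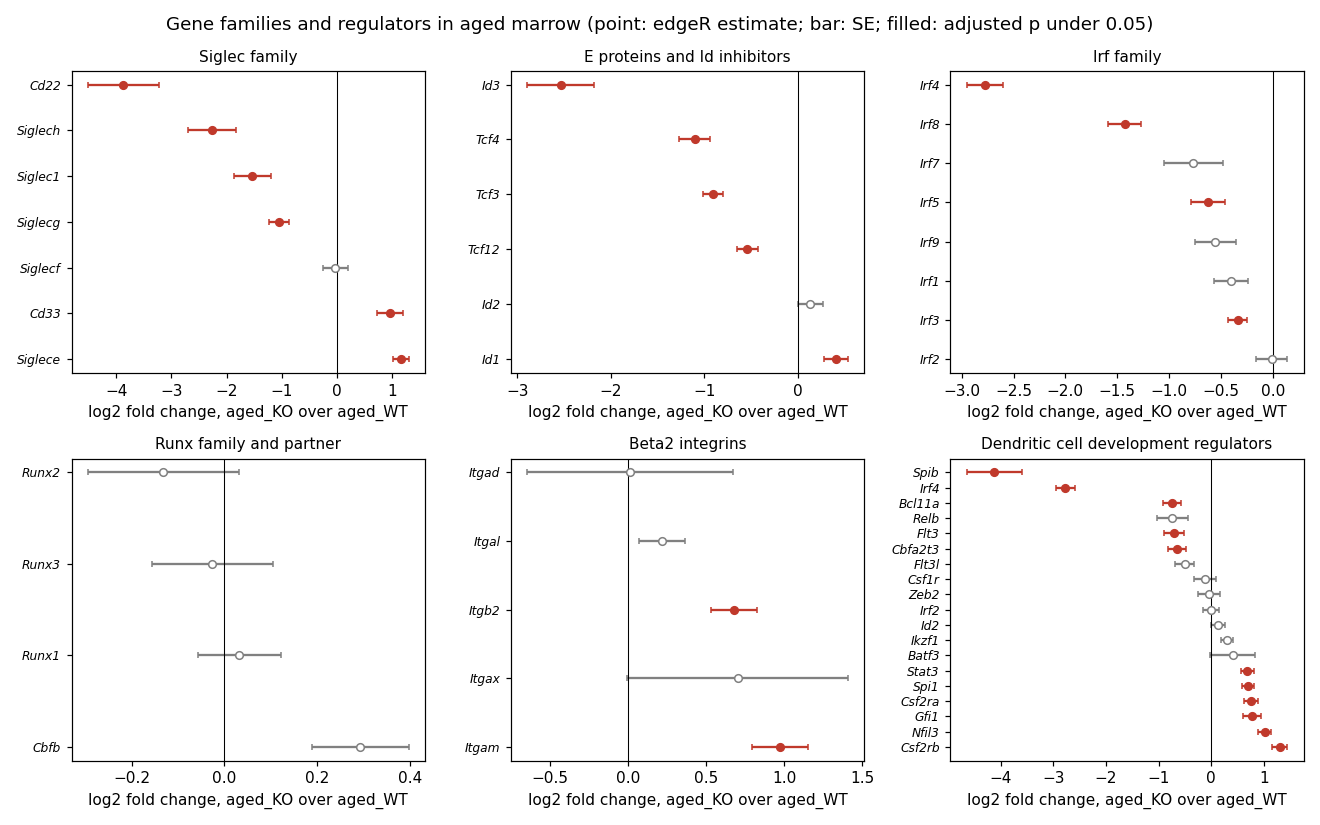
Log2 fold change of aged_KO over aged_WT with its standard error (edgeR, 3 libraries a group) for the described Siglec, E protein and Id, Irf, Runx and beta2 integrin genes and for regulators of dendritic cell development, with filled points for an adjusted p under 0.05. Points of the regulator panel spread from *Spib* at -4.12 to *Csf2rb* at 1.30.

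Markers of other cells moved in aged marrow at the same time, and several of the genes above are used by those cells too. Over all genes tested, 15.8% fell and 15.6% rose in this comparison. All 8 B cell markers fell, their summed CPM running between 20.6 and 32.6 in aged_KO and between 408 and 921 in aged_WT. Of these, *Ebf1*, *Pax5*, *Vpreb1* and *Rag1* passed the filter on low counts only through aged_WT, where they are higher, so the count is a description. All 5 T cell markers fell (sums of 13.5 to 19.9 against 55.8 to 95.9 CPM), as did 4 of 5 plasma cell markers (425 to 570 against 1153 to 1682 CPM). So did 5 of 7 erythroid markers (425 to 750 against 1086 to 5980 CPM) and 4 of 5 NK cell markers (89.2 to 178 against 107 to 140 CPM). Most of the NK sum was *Nkg7*, named after its values were seen, at 98.2, 76.3 and 170 CPM in aged_KO. It was the NK marker that did not pass (0.52 ± 0.26, edgeR adjusted p = 0.168). Of 8 neutrophil markers 4 rose (96890 to 117087 CPM in aged_KO, 76953 to 98586 CPM in aged_WT). None of 6 monocyte markers passed, with sums of 3270 to 4055 CPM in aged_KO and 3200 to 4549 CPM in aged_WT. Of 6 macrophage markers 3 fell, and of 3 tested osteolineage markers 2 did, these last with sums of 6.64 to 11.0 CPM in aged_KO and 11.1 to 13.9 CPM in aged_WT. None of these markers was at 0 in every library of a group. The part of these cells in the dendritic cell genes was not tested.

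Knockout against wild type in the MN1 experiment compares the genotypes among libraries labelled with MN1 overexpression. Since *Mn1* was low in MN1_WT replicates 2 and 4, it sets 3 *Mn1*-high MN1_KO libraries mostly against *Mn1*-low MN1_WT ones. None of the dendritic cell genes passed: of the 10, 7 were tested and 0 fell or rose, in a comparison in which edgeR called 0 of 13525 genes (0%), with 1353 at an unadjusted p under 0.05 (785 lower, 568 higher). DESeq2 called 565 genes, among them *Siglech* (-2.99, adjusted p = 0.0114) and *Itgax* (-1.30, adjusted p = 0.0495) as lower, and limma-trend called 6 genes. With the spread of all 12 libraries edgeR called 464 genes and 2 of the 10, from among *Cd209a*, *Cd209d* and *Klk1*, which entered that fit only through the aged groups. *Siglech* was at 1.03, 0.529 and 0.696 CPM in MN1_KO, against 10.9, 1.41 and 4.16 CPM in MN1_WT. The groups did not overlap, and its log2 fold change was -2.96 ± 0.84 (edgeR adjusted p = 0.297, unadjusted p = 0.0107). *Itgax* was at 9.35, 9.52 and 8.30 CPM in MN1_KO, against 18.6, 13.7 and 30.7 CPM in MN1_WT, again without overlap (-1.28 ± 0.38, edgeR adjusted p = 0.328). *Klk1* and *Cd209a* also had every MN1_KO library below every MN1_WT library, which makes 4 of the 10 genes where 8.33% of all genes tested did so. Both were below the filter on low counts. *Cd209a* had 1 count in MN1_KO against 33 in MN1_WT, a ratio of 30.2 (95% interval 5.06 to 1229), and *Klk1* had 2 against 51, a ratio of 23.4 (6.14 to 198); these intervals cover counting error only. *Cd209d* had 0 counts in MN1_KO and 2 in MN1_WT, too few for a fold.

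The remaining genes varied within the MN1 groups more than between them. *Ccr9* was at 56.6, 95.2 and 16.7 CPM in MN1_KO, against 7.39, 304 and 2.88 CPM in MN1_WT (-0.80 ± 1.53, edgeR adjusted p = 0.901). MN1_WT replicate 3 stood far above replicates 2 and 4 of its group, with 7327 counts. *Tcf4* was at 85.7, 63.8 and 16.3 CPM in MN1_KO, against 38.4, 84.9 and 27.9 CPM in MN1_WT (0.09 ± 0.57, edgeR adjusted p = 0.972). *Runx2* was at 117, 117 and 52.6 CPM in MN1_KO, against 43.8, 115 and 40.1 CPM in MN1_WT (0.52 ± 0.41, edgeR adjusted p = 0.759). In *Ccr9*, *Tcf4* and *Runx2* MN1_WT replicate 3 lay above MN1_WT replicates 2 and 4, and MN1_KO replicates 5 and 7 above replicate 8. *Irf8* had the opposite order, with 56.7, 26.8 and 162 CPM in MN1_KO, against 169, 41.1 and 130 CPM in MN1_WT (-0.47 ± 0.83, edgeR adjusted p = 0.891). *Cox6a2* was low throughout, at 0.987, 0.192 and 0.870 CPM in MN1_KO, against 1.62, 0.581 and 0.400 CPM in MN1_WT (-0.38 ± 0.81, edgeR adjusted p = 0.913). Without MN1_WT replicate 3, edgeR called 896 genes, and *Siglech* (-3.44, adjusted p = 0.0313) and *Itgax* (-1.57, adjusted p = 0.0374) were among 4 of the 10 genes that fell. The others were *Cd209a* and *Klk1*, which entered that fit only through MN1_WT, where they are higher. The count is therefore a description, and how many of the 896 genes fell is not given here. With only MN1_WT replicate 3 kept in its group, the one assumed to vary like MN1_KO, *Siglech* was at -0.76 ± 0.69 and *Itgax* at -0.44 ± 0.38, edgeR called 0 genes, and *Irf8* (1.24), *Tcf4* (-0.53), *Runx2* (-0.15) and *Cox6a2* (0.40) changed sign without passing.

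Of the wider lists, none had a gene past the threshold between MN1_KO and MN1_WT. Tested were 16 of 18 other plasmacytoid genes (median log2 fold change 0.06), 24 of 27 conventional dendritic cell genes (median -1.02) and all 19 regulators (median -0.24), beside a median of 0.03 over all genes. Every MN1_KO library lay below every MN1_WT library in 6 of the 27 conventional genes, *Irf4*, *Clec9a*, *Clec10a*, *Dtx1*, *Notch2* and *Wdfy4*. The same held in 4 of the 18 plasmacytoid genes, *Lifr*, *Pacsin1*, *Havcr1* and *Upb1*. Of all genes tested 8.33% did so, a share that leaves out *Havcr1* and *Upb1*, which were below the filter. In the plasmacytoid list, *Irf7* (149 to 251 against 84.1 to 130 CPM) and *Tlr7* (35.8 to 38.3 against 22.0 to 23.8 CPM) lay above MN1_WT in every MN1_KO library. The share of all genes that did so is not given here, so these 2 genes are a description. *Irf4* was at 3.87, 2.79 and 3.61 CPM in MN1_KO, against 36.3, 7.60 and 31.6 CPM in MN1_WT (-2.96 ± 0.65, edgeR adjusted p = 0.226). The B cell markers summed to between 29.9 and 43.8 CPM in MN1_KO and between 43.3 and 315 CPM in MN1_WT, and the T cell markers to between 48.9 and 62.8 CPM in MN1_KO and between 101 and 213 CPM in MN1_WT. Their part in these values was not tested.

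**Figure D4:**
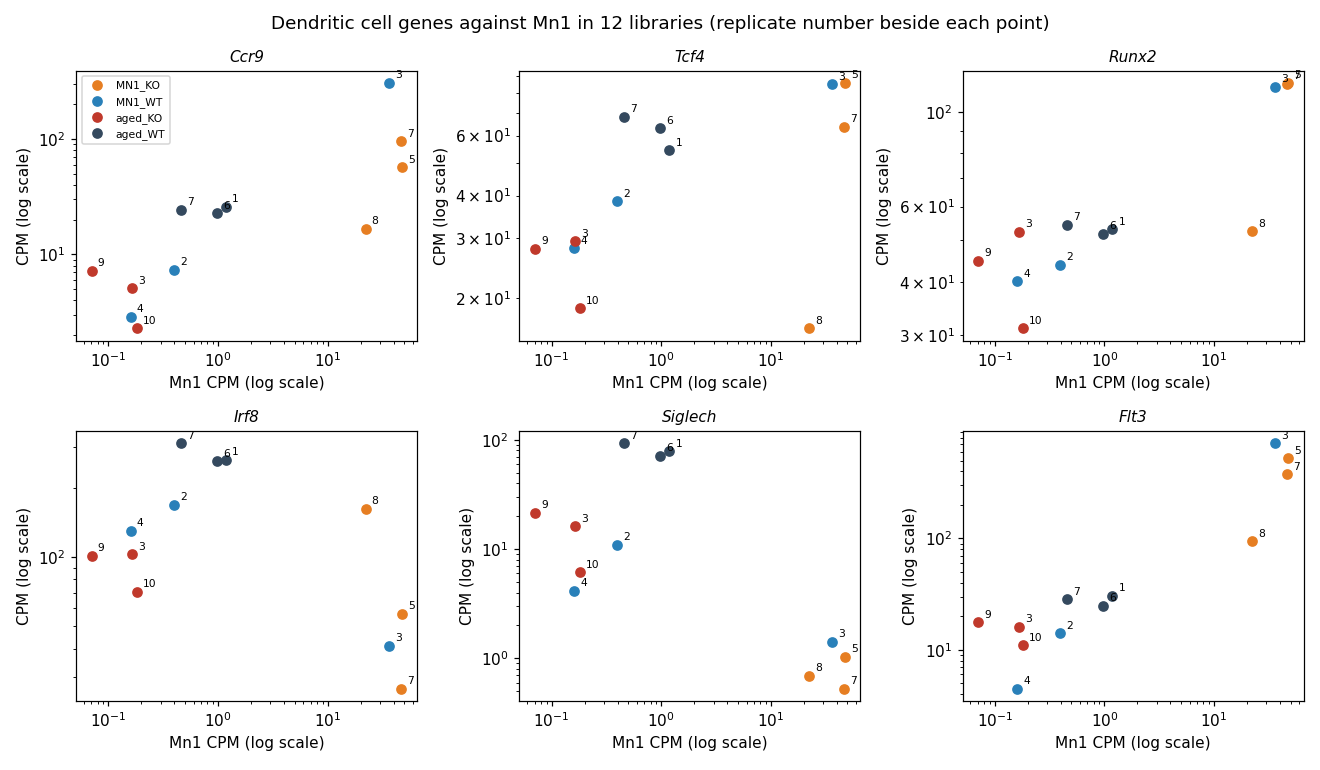
CPM of *Ccr9*, *Tcf4*, *Runx2*, *Irf8*, *Siglech* and *Flt3* against CPM of *Mn1* (both log axes) in the 12 libraries, coloured by group, with the replicate number beside each point. MN1_KO replicates 5 and 7 and MN1_WT replicate 3 stand at the right, at 36.4 to 47.3 CPM of *Mn1*, with high *Ccr9*, *Runx2* and *Flt3* and low *Irf8* and *Siglech*, and MN1_KO replicate 8 at 22.1 CPM of *Mn1* stands apart from them in most panels.

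The level of *Mn1* set beside these values shows where the genes part. In MN1_KO replicates 5 and 7 and MN1_WT replicate 3, the libraries with *Mn1* at 36.4 CPM or more, *Runx2* was at 115 to 117 CPM, whereas in the remaining 9 libraries it was at 31.1 to 54.4 CPM. *Irf8* was at 26.8 to 56.7 CPM in the same 3 libraries and at 70.6 CPM or more elsewhere. *Flt3* stood out most, with 523, 377 and 94.4 CPM in MN1_KO and 14.1, 715 and 4.48 CPM in MN1_WT, next to 11.0 to 17.7 CPM in aged_KO and 25.0 to 30.5 CPM in aged_WT. Some genes of the plasmacytoid list did likewise, among them *Ptprs*, a phosphatase that restrains these cells, with 214, 166 and 55.4 CPM in MN1_KO and 56.7, 220 and 44.8 CPM in MN1_WT. *Bcl11a*, a factor that acts upstream of Tcf4, was at 114, 97.8 and 38.2 CPM in MN1_KO and 44.6, 178 and 39.3 CPM in MN1_WT. Other genes of that list did not: in MN1_KO *Spib* was at most 3.57 CPM, *Lifr* at most 4.26 CPM and *Upb1* at most 0.131 CPM. How many of the list went each way is not counted here. *Runx1* and *Runx3* followed *Runx2*, with *Runx1* at 225, 128 and 55.3 CPM in MN1_KO and 81.3, 224 and 84.4 CPM in MN1_WT. These genes were set beside *Mn1* after their values were seen, and the libraries are not treated as groups. The same 3 libraries also stood apart in *Xist*, at 3919 to 4937 CPM where no other library was above 823 CPM, so the levels of *Mn1* and *Xist* cannot be told apart as marks of these 3 libraries. The part of either was not tested.

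The gene model of *Ccr9* in GENCODE M21 spans 123678439 to 123784330 of chromosome 9 and is overlapped on the opposite strand by *Lztfl1* and *Slc6a20a*. *Lztfl1* was at 68.0, 60.2 and 17.8 CPM in MN1_KO and 12.1, 95.1 and 9.93 CPM in MN1_WT, next to 9.33, 7.71 and 8.10 CPM in aged_KO and 10.9, 12.5 and 17.1 CPM in aged_WT, so it was high in the same libraries as *Ccr9*. *Slc6a20a* was at most 4.76 CPM in any library. Reads of *Ccr9* and of *Lztfl1* cannot be told apart here where the genes overlap, since the strand setting of the counting is not given in the sources used here.

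MN1_WT was set against aged_WT to compare the same genotype between the experiments. Of the 10 genes 5 fell, 0 rose and 5 did not pass, next to 2.58% of 13937 genes that fell and 1.00% that rose. Of the 5, *Cd209a*, *Cd209d* and *Klk1* entered this fit only through the aged groups, where they are higher, so the count is a description. *Siglech*, between 1.41 and 10.9 CPM in MN1_WT and between 71.8 and 92.9 CPM in aged_WT, had a log2 fold change of -3.99 ± 0.68 (edgeR adjusted p = 0.0157), and *Klk1*, at 0.208 to 1.23 against 10.9 to 20.0 CPM, one of -4.65 ± 0.65 (edgeR adjusted p = 0.00782). *Cd209a* had -4.59 ± 0.58 (edgeR adjusted p = 0.00638). *Cox6a2* had -3.23 ± 0.61 (edgeR adjusted p = 0.0201). *Cd209d* had 2 counts in MN1_WT and 176 in aged_WT, a ratio of 109 (95% interval 29.8 to 911; edgeR adjusted p = 0.00688). *Siglech* did not pass without aged_WT replicate 6 or 7 (edgeR adjusted p = 0.0515 and 0.0529), nor did *Cox6a2* without MN1_WT replicate 4 or any 1 of the aged_WT replicates (0.0522 to 0.0749). *Irf8* had every MN1_WT library below every aged_WT library and did not pass (-1.41 ± 0.65, edgeR adjusted p = 0.212). *Ccr9* (1.81 ± 1.24), *Tcf4* (-0.50 ± 0.46), *Runx2* (0.11 ± 0.35) and *Itgax* (-0.79 ± 0.56) did not pass. With MN1_WT replicate 3 as the only MN1_WT library, assumed to vary like the other groups, *Siglech* was at -6.14 ± 0.81. In that fit *Klk1* was at -6.51 ± 0.89 and *Ccr9* at 3.34 ± 0.66. Without MN1_WT replicate 3, *Ccr9* was at -2.33 ± 0.67 (edgeR adjusted p = 0.0911).

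In the same comparison, 3 of 18 other plasmacytoid genes fell, *Tlr7* at -1.03 ± 0.17, *Upb1* at -3.18 ± 0.75 and *Havcr1* at -4.03 ± 0.74 (edgeR adjusted p = 0.0136, 0.0433 and 0.0255), and 0 rose, with a list median of -0.71 against 0.06 over all genes. *Ccr7*, the receptor that takes dendritic cells to lymph nodes, was the 1 conventional gene of 25 tested that fell (-4.11 ± 0.71, edgeR adjusted p = 0.0157; list median -0.62), and 0 of 19 regulators passed (list median -0.14). Of the family lists, *Klk1b27* fell with *Klk1* (-3.71 ± 0.80). *Upb1*, *Havcr1*, *Ccr7* and *Klk1b27* likewise entered this fit only through the aged libraries, with their highest counts in aged_WT.

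Set against aged_KO, MN1_KO had 5 of the 10 genes lower, 0 higher and 5 that did not pass, next to 16.8% of 13937 genes that fell and 21.1% that rose. *Siglech* was at 0.529 to 1.03 CPM in MN1_KO and 6.10 to 21.4 CPM in aged_KO (-4.65 ± 0.75, edgeR adjusted p = 0.00251). *Itgax* was at 8.30 to 9.52 CPM in MN1_KO and 19.5 to 107 CPM in aged_KO (-2.77 ± 0.59, edgeR adjusted p = 0.00701). *Cd209a* and *Klk1* were close to 0 in MN1_KO. Without aged_KO replicate 3, *Itgax* was at -1.59 ± 0.34 (edgeR adjusted p = 0.0154). *Cd209a* had 1 count in MN1_KO and 105 in aged_KO, a ratio of 113 (95% interval 19.9 to 4513; edgeR adjusted p = 0.00105), and *Klk1* had 2 and 128, a ratio of 69.0 (18.7 to 576; edgeR adjusted p = 0.00162). *Cd209d*, with 0 counts in MN1_KO and 17 in aged_KO, was at least 6.11-fold lower against a floor of 3 counts over the group (edgeR adjusted p = 0.00543). *Cd209a*, *Cd209d* and *Klk1* passed the filter only through the aged groups, and without scaling factors the median of all genes moved by 0.37. *Ccr9* had every MN1_KO library above every aged_KO library, as did *Runx2*, but neither passed (3.09 ± 1.33, edgeR adjusted p = 0.0851, and 0.76 ± 0.35, edgeR adjusted p = 0.103). *Tcf4* (0.70 ± 0.47), *Irf8* (-0.45 ± 0.64) and *Cox6a2* (-1.12 ± 0.60) did not pass. Without MN1_KO replicate 8, *Tcf4* (1.10, adjusted p = 0.0220) and *Runx2* (1.00, adjusted p = 0.0323) were higher and *Irf8* (-1.60, adjusted p = 0.0323) lower by edgeR.

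In the same comparison 3 of 18 other plasmacytoid genes fell and 4 rose, shares near the 16.8% and 21.1% of all genes, with a median log2 fold change of -0.02 against 0.08 over all genes. *Irf7* was at 155, 149 and 251 CPM in MN1_KO, against 46.4, 43.2 and 23.0 CPM in aged_KO (1.97 ± 0.33, edgeR adjusted p = 0.00291), and *Bst2* at 74.6, 53.0 and 106 CPM, against 25.9, 28.3 and 20.3 CPM (1.30 ± 0.26, edgeR adjusted p = 0.00531). *Upb1* (-4.97 ± 0.96) and *Lifr* (-2.37 ± 0.44) fell, and *Havcr1* had 0 counts in MN1_KO against 47 in aged_KO, at least 16.9-fold lower at the same floor. Of 25 conventional genes tested, 11 fell and 2 rose (median -0.78), with *Notch2* (-1.34 ± 0.21), *Wdfy4* (-0.78 ± 0.14), *Cadm1* (-3.17 ± 0.63) and *Clec10a* (-1.77 ± 0.38) lower. *Flt3* (4.03 ± 1.41, edgeR adjusted p = 0.0432) and *Fscn1* (2.11 ± 0.50) were the ones that rose. Of 19 regulators 9 fell and 2 rose (median -0.68), the lower ones including *Stat3* (-1.21 ± 0.16), *Nfil3* (-1.37 ± 0.27), *Ikzf1* (-0.68 ± 0.15) and *Csf2rb* (-0.88 ± 0.20), and the higher ones being *Flt3* and *Flt3l* (0.70 ± 0.24).

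Among relatives, the Id genes *Id1* (-1.41 ± 0.43) and *Id2* (-1.59 ± 0.37) fell and *Tcf3* (0.55 ± 0.11) rose in MN1_KO against aged_KO. Of 9 Irf genes tested, 2 fell, *Irf4* (-1.69 ± 0.50) and *Irf2* (-0.46 ± 0.15), and 3 rose, among them *Irf9* (0.69 ± 0.22) and *Irf7*. *Itgam* (-1.63 ± 0.39) and *Itgad* (-2.24 ± 0.54) fell with *Itgax*, and *Cbfb*, the Runx partner, fell (-0.68 ± 0.16). Sums of neutrophil markers were 24899 to 83527 CPM in MN1_KO and 96890 to 117087 CPM in aged_KO, and sums of monocyte markers 733 to 2959 CPM in MN1_KO and 3270 to 4055 CPM in aged_KO. The part of these cells in the values was not tested.

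The knockout effects of both experiments were compared directly by their difference, MN1 minus aged. None of the 10 genes passed, where 3.32% of 13937 genes did. The difference was 2.10 ± 0.84 for *Cox6a2*, which was lower in aged_KO than in aged_WT but low in both MN1 groups, and -1.98 ± 0.79 for *Itgax* (edgeR adjusted p = 0.173 for both). It was 1.19 ± 0.66 for *Tcf4*, 1.28 ± 1.74 for *Ccr9*, 0.95 ± 0.91 for *Irf8*, 0.64 ± 0.49 for *Runx2* and -0.66 ± 0.92 for *Siglech* (edgeR adjusted p = 0.308, 0.691, 0.561, 0.457 and 0.696). *Cd209a* (-2.00 ± 1.02), *Klk1* (-1.47 ± 1.08) and *Cd209d* (0.90 ± 1.24) passed the filter through the aged groups and rest on almost no MN1 counts. The knockout effects of the 10 genes are thus not shown to differ between the experiments. Without MN1_WT replicate 3, *Ccr9* (5.37, adjusted p = 0.00318) and *Runx2* (1.14, adjusted p = 0.0442) passed by edgeR. Over all genes, 463 passed with every library and 53 to 3337 with 1 left out, and the number for that fit is not given here. That fit keeps MN1_WT replicates 2 and 4, where *Mn1* was low, so genotype and *Mn1* level cannot be told apart in it.

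Likeness of pattern was measured as the root mean square difference of log2 TMM-scaled CPM, each gene centred over the 12 libraries, so that smaller means more alike. Among the 10 genes the closest pairs were *Klk1* with *Siglech* at 0.31, *Cd209a* with *Klk1* at 0.46, *Runx2* with *Tcf4* at 0.53 and *Cd209a* with *Siglech* at 0.55. *Ccr9* was nearest to *Tcf4*, at 1.45. Of 10760 other genes, *Ppbp* (1.03), *Ptgs2* (1.04), *Tubb1* (1.04) and *Ace* (1.05) were among those nearest to *Siglech*, and *Tubb1* (0.88), *Ppbp* (0.90), *Alox12* (0.96) and *Pid1* (0.96) among those nearest to *Cd209a*. *Ppbp*, *Tubb1* and *Alox12* are genes of platelets, and *Ptgs2* encodes the inducible cyclooxygenase. *Ppbp* was at 0.329, 0.433 and 1.70 CPM in MN1_KO, 4.78, 0.872 and 8.17 CPM in MN1_WT, 8.62, 8.17 and 22.8 CPM in aged_KO and 118, 82.9 and 79.6 CPM in aged_WT. *Ppbp* was thus highest in aged_WT like *Siglech*, while MN1_KO replicate 8 lay above MN1_WT replicate 3. All values come from the same 12 libraries, and shared pattern over 4 groups says little beyond the order of the groups.

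**Figure D5:**
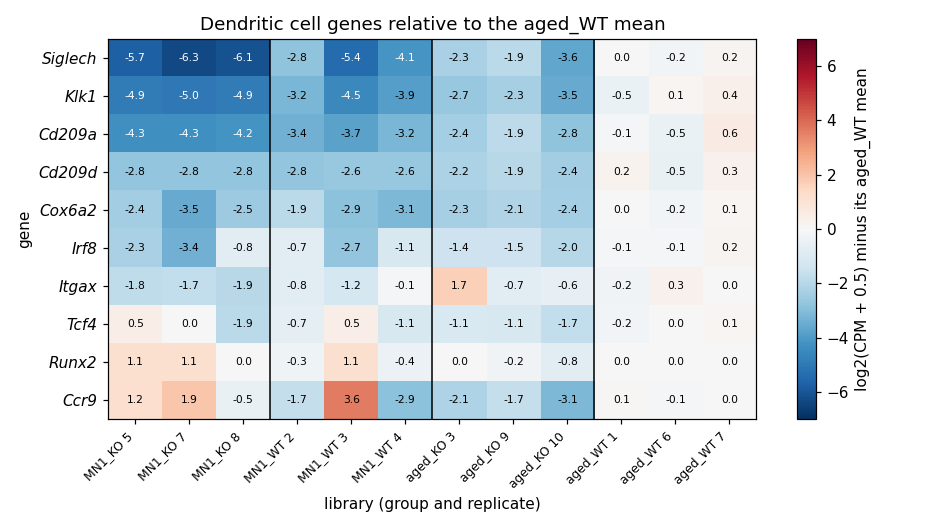
log2(CPM + 0.5) of each of the 10 genes (rows) in each library (columns) minus the gene's mean over aged_WT, with red for higher and blue for lower. *Siglech*, *Klk1* and *Cd209a* are lower than their aged_WT mean in all 9 libraries of the other groups, and *Ccr9* is at 3.62 in MN1_WT replicate 3 and at -2.87 in MN1_WT replicate 4.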

How the data were processed

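Bone marrow RNA of 12 mouse libraries was prepared with a stranded mRNA kit, per the labels' protocols. The authors deposited expected counts per gene symbol and TPM, made with RSEM 1.2.28 and Bowtie2 2.3.4.3 on mm10, per the submitters' processing notes; the annotation is not given in the sources used here. Expected counts were rounded to whole numbers, put through filterByExpr and TMM scaling, and compared in R 4.3.3 by the robust quasi-likelihood test of edgeR 4.0.16, with Benjamini-Hochberg adjustment. Knockout effects used the 6 libraries of their own table, and the other contrasts used 1 fit of all 12 libraries. CPM of single libraries is unscaled; deposited TPM served only for levels between genes. The genes and lists were chosen with earlier results of these data known. Named are the 10 genes, targeted genes, up to 4 genes per list and comparison with the smallest adjusted p, family genes and the 5 nearest in pattern to *Siglech* and to *Cd209a*; others are said to be chosen after their values were seen. A few of the genes so named are not reported here. Alternatives were RLE, upper-quartile and, added after seeing the data, no scaling, no or a stricter filter (CPM of at least 1 in 3 libraries), DESeq2 1.42.0, limma-trend (limma 3.58.1) and leaving out libraries. Ratios and floors cover counting error only.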

Additional observations from a re-analysis of the deposited data

Results flagged for a closer look

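None of the 10 dendritic cell genes had a knockout effect that differed between the experiments by edgeR's test of the difference (MN1 minus aged, log2). Of the 136 other genes on the lists that were tested, 7 did (5.15%), beside 3.32% of 13937 genes in all. *Bst2*, the antiviral tether of plasmacytoid cells, had a difference of 2.06 (edgeR adjusted p = 0.0198). *Stat3*, which carries Flt3 signals, had -1.03 (edgeR adjusted p = 0.0359) and *Csf2rb* -1.33 (edgeR adjusted p = 0.0352). The E protein gene *Tcf3* had 0.68 (edgeR adjusted p = 0.0397). The B cell marker *Cd79b* had 2.56 (edgeR adjusted p = 0.0342) and the macrophage marker *Mrc1* 2.04 (edgeR adjusted p = 0.0423). *Hopx* itself had 6.12 (edgeR adjusted p = 0.0133), a fitted value that rests on aged_KO libraries near 0 and is no bound.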

How the results depend on the processing

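No paired analysis was possible because the groups compared share no replicate numbers. Of 667 recomputed values of single genes among the 10, 616 kept direction and side of the threshold, 10 lost the call, 12 gained one and 29 changed sign; the causes were not tested. In aged marrow 4008 genes passed, 2402 to 4599 with 1 library left out (2560 without aged_WT replicate 6, 2402 without replicate 7) and 818 with the spread of all 12 libraries, where 4 of the 10 genes fell; *Itgax* ran between -0.48 and 1.07 and *Runx2* between -0.25 and 0.0577 with 1 library left out. Between MN1_KO and MN1_WT 0 genes passed, against 565 by DESeq2, 6 by limma-trend, 464 with all 12 libraries and 0 to 896 with 1 left out (3 without MN1_KO replicate 5); 2 of the 10 genes fell by DESeq2 and with all 12, and 0 to 4 with 1 left out. There *Ccr9* was 1.22 and *Tcf4* -0.0391 by limma-trend; with 1 left out, *Ccr9* ran between -1.50 and 3.30, *Tcf4* between -0.32 and 0.56 and *Cox6a2* between -0.71 and 0.51. Without both MN1_WT libraries of low *Mn1*, *Tcf4* was -0.53, *Irf8* 1.24, *Cox6a2* 0.40 and *Runx2* -0.15. For the difference of effects 463 genes passed, against 1685 by DESeq2, 53 to 3337 with 1 left out and 40 without both low-*Mn1* libraries; 1 of the 10 genes was higher by limma-trend (*Cd209d*, 2.80) and 0 to 2 with 1 left out. By limma-trend *Siglech* was 0.10, *Cd209a* 0.26 and *Klk1* 0.52; without both libraries *Siglech* was 1.45, *Klk1* 0.35, *Ccr9* -0.31 and *Runx2* -0.0901; with 1 left out *Siglech* ran between -1.17 and 0.30 and *Irf8* between -0.20 and 1.37. For MN1_WT against aged_WT 499 genes passed, against 1791 by DESeq2, 78 to 397 with 1 left out and 2465 without both; 3 to 5 of the 10 genes fell with 1 left out, and 1 was higher without both. *Ccr9* was -0.52 and *Runx2* -0.0113 by limma-trend, *Tcf4* 0.16 without both, and with 1 left out *Ccr9* ran between -2.33 and 2.38 and *Runx2* between -0.42 and 0.34. For MN1_KO against aged_KO 5283 genes passed, 2515 to 7366 with 1 left out (3083 without aged_KO replicate 3, 2515 without replicate 9); 1 of the 10 genes was higher by DESeq2 (*Ccr9*, 3.05) and 0 to 2 with 1 left out. *Cd209d* had 0 counts in MN1_KO and 2 in MN1_WT, so a difference between them was not detectable at this depth.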
